A study of Macaca mulatta with 24 samples.

Results

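The genes described here build, regulate and move cholesterol and fatty acids. They are a list of 51 human gene symbols: 18 enzymes of sterol synthesis, 16 regulators and transporters of sterols, and 17 genes of fatty acid synthesis and handling (lipogenesis). A listed gene was measured when at least 1 of its probes had a detection p-value under 0.01 on at least 4 of 24 arrays, which left 36 of 51 genes out of 9884 measured in all. The rule uses the signal of a probe against background and no difference between diets, though a dim probe can meet it through 1 diet group.

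Cerebral cortex of adult male rhesus monkeys was taken from the temporal neocortex after 24 months of diet. The study lists the animals as 7 to 13 years old without saying whether this range is at the start or the end of the diet. It gives only their average age at baseline. RNA was hybridized to HumanHT-12 V4.0 beadchips, which carry human probes (Illumina), and each animal had 1 array. The 4 SD monkeys ate a standard diet with 13% of calories from fat and under 5% sucrose by weight. The 10 HFS monkeys ate a high-fat, high-sugar diet with 42% of calories from fat and 27% sucrose by weight. The 10 HFS+R monkeys (RESV in the labels) ate that HFS diet and also received 2 treats a day, each with 40 mg resveratrol at first and 240 mg from the start of the second year, while SD and HFS monkeys received placebo treats. All animals had eaten standard chow before they were assigned to a diet in a way that balanced age and body weight. Levels are log2 signals, Z normalized within each array and put back on a log2 scale, and a difference is that of 2 group means on this scale. The number of arrays limits the precision, and how well the human probes match monkey transcripts was not examined. In bulk tissue, fewer cells of a type and less RNA per cell cannot be told apart.

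The brain makes nearly all of its own cholesterol, because lipoproteins of the blood do not cross the blood-brain barrier. Oligodendrocytes use it for myelin, and astrocytes release it on apolipoprotein E particles that neurons take up through receptors of the LDL receptor family. In the regulatory loop, SCAP carries the SREBP transcription factors out of the endoplasmic reticulum when sterol is low, the INSIG proteins hold SCAP back when sterol is plentiful, and SREBPs switch on genes of sterol and fatty acid synthesis, INSIG1 among them.

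Of the sterol synthesis enzymes, 9 of 18 were measured, compared with 13 of 16 regulators and transporters and 14 of 17 lipogenesis genes. The 13 genes whose probes were detected on too few arrays were MVK, PMVK, MVD, IDI1, FDPS, LSS, CYP51A1 and SC5D of the synthesis pathway, SOAT1 and NR1H3 among the regulators, and FADS2, FABP3 and DGAT2 in lipogenesis. FDFT1 and NR1H2 have no probe named here. Just outside the detection rule, FDPS and the best probe of LSS were detected on 3 arrays each. Just inside it, ACACA was detected on 5 arrays, ELOVL5 on 6, LPL on 7 and SREBF2 on 13, and LRP8 was detected on 18. Detection of ELOVL5 was on 1 SD, 1 HFS and 4 HFS+R arrays, so it met the rule only through HFS+R. The other 31 measured genes were detected on all 24 arrays.

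Between HFS+R and HFS, 5 of 36 genes (13.9%) passed the test at an adjusted p under 0.05 (limma, 2-sided, Benjamini-Hochberg over all genes), compared with 16% of the 9884 genes measured, so the share of these genes that changed was close to the background. Levels of MSMO1, SQLE and INSIG2 were higher in HFS+R, and levels of HSD17B7 and DGAT1 were lower. The 3 genes that rose are 8.33% of the 36, beside 9.94% of all genes, and the 2 that fell are 5.56%, beside 6.07%. The median difference was 0.08 over the 36 genes and 0.02 over all genes, and 25 of the 36 differences were above 0. The HFS and HFS+R arrays overlapped for every one of the 36 genes, while 0.152% of all genes had no overlap between these groups. With each array scaled by its median in place of its mean and standard deviation, the median difference of all genes moved to 0.11, the split of all calls went from 982 higher and 600 lower to 1410 higher and 73 lower, and that of these genes from 3 higher and 2 lower to 6 higher and 0 lower.

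**Figure D1:**
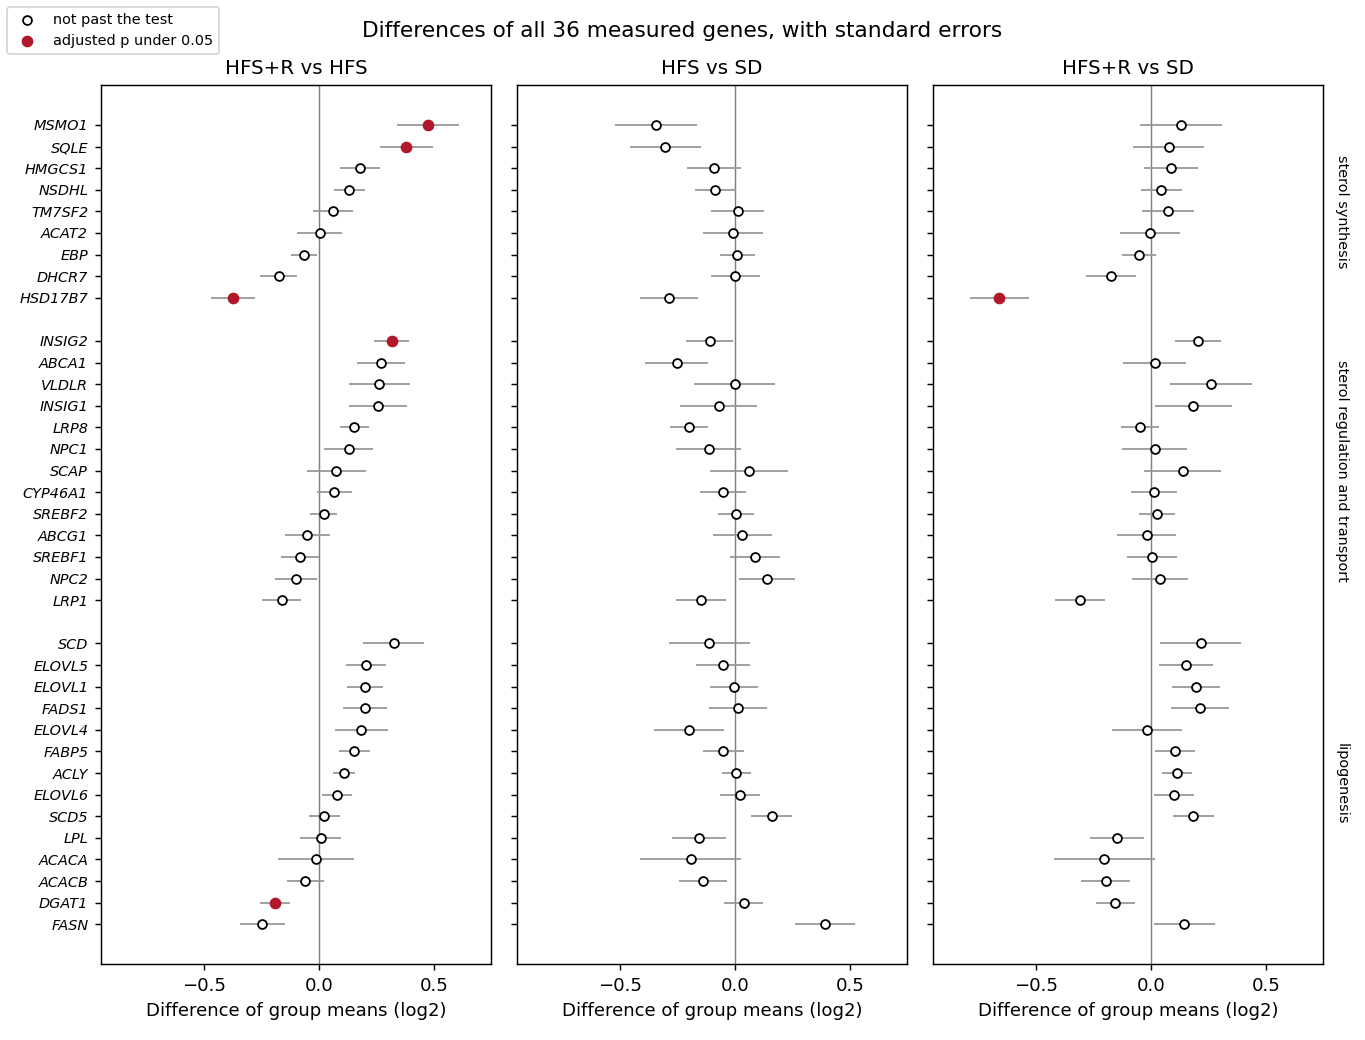
Difference of group means (log2, horizontal axis) with its standard error for each of the 36 measured genes, ordered within their role group by the HFS+R vs HFS difference, in the 3 diet comparisons. Filled points mark an adjusted p under 0.05: 5 genes in HFS+R vs HFS, 0 in HFS vs SD and 1, HSD17B7, in HFS+R vs SD.

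In the sterol synthesis pathway, 3 of 9 measured enzymes passed between HFS and HFS+R (33.3%, beside 16% of all genes), 2 of them higher and 1 lower. MSMO1 is the oxidase that begins removal of the methyl groups at carbon 4 of sterols made from lanosterol. Its level on the 4 SD arrays was 8.89, 8.94, 9.07 and 8.38. On HFS arrays it ran from 8.09 to 8.92 with a median of 8.47, and on HFS+R arrays from 8.54 to 9.54 with a median of 8.82. Of the HFS+R arrays, replicates 3, 8, 9 and 10 lay above every HFS array, at 9.17 to 9.54, and the other 6 lay within the HFS range. The HFS+R mean exceeded the HFS mean by 0.47 (1.39-fold, SE 0.14, adjusted p = 0.0206, 10 of 10 HFS+R arrays above the HFS mean). MSMO1 has 3 detected probes, and they disagreed: the brightest, used here, gave 0.47, and the others gave 0.17 (adjusted p = 0.294 over the detected probes) and -0.15 (adjusted p = 0.17). With the mean of the 3 probes, the difference was 0.17 and did not pass (adjusted p = 0.11).

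SQLE oxidizes squalene and is a rate-controlling step of the pathway. Its SD arrays stood at 8.45, 7.96, 7.87 and 7.29, a range wider than that of either group of 10. HFS arrays ran from 7.24 to 7.88 with a median of 7.60, and HFS+R arrays from 7.68 to 8.39 with a median of 7.96. Of the HFS+R arrays, 6 lay above every HFS array. The difference was 0.38 (SE 0.12, adjusted p = 0.0289, 10 of 10 HFS+R arrays above the HFS mean), and a second probe gave 0.22 in the same direction (adjusted p = 0.0861 over the detected probes). The call of SQLE was lost when any one of HFS replicates 1, 2, 3 and 4 or HFS+R replicate 3 was left out, with adjusted p between 0.0519 and 0.0584.

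HSD17B7 reduces the keto group left on the sterol after each of those methyl groups is removed, and it can also convert estrone to estradiol. It moved opposite to MSMO1 and SQLE. Its level was 11.57, 11.42, 11.52 and 11.40 on the SD arrays. HFS arrays ran from 10.86 to 11.75 with a median of 11.23, and HFS+R arrays from 10.38 to 11.06 with a median of 10.82 (mean 10.81). The SD arrays were high and close together, 9 of 10 HFS arrays lay below all of them, and 6 of 10 HFS+R arrays lay below every HFS array. HFS+R was 0.37 below HFS (difference -0.37, SE 0.10, adjusted p = 0.0117). Scaled by the array median, the difference was -0.15 and did not pass (adjusted p = 0.422), beside a median of 0.11 over all genes in that setting. HSD17B7 has 1 probe and a near-identical copy, HSD17B7P2, so the value is uncertain where transcripts of both could bind. The probe of HSD17B7P2 was detected on 17 arrays and its difference was 0.13 (SE 0.07, adjusted p = 0.164).

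The other 6 synthesis enzymes did not pass, with differences from -0.18 for DHCR7, which makes the final reduction to cholesterol, to 0.18 for HMGCS1, which makes HMG-CoA. Between them lay 0.13 for NSDHL, the sterol decarboxylase that works between MSMO1 and HSD17B7, 0.06 for the sterol reductase TM7SF2, 0.00 for the thiolase ACAT2 and -0.06 for the sterol isomerase EBP. Enzymes of the one pathway therefore differed in sign, and the 3 that act in succession to remove the methyl groups that MSMO1 oxidizes gave 0.47, 0.13 and -0.37. The first value is that of the brightest MSMO1 probe, and its other probes gave 0.17 and -0.15. NSDHL did not pass (adjusted p = 0.186 with limma), and HSD17B7 did not pass with arrays scaled by the median. No trend along these steps is therefore read from the 3 values.

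**Figure D2:**
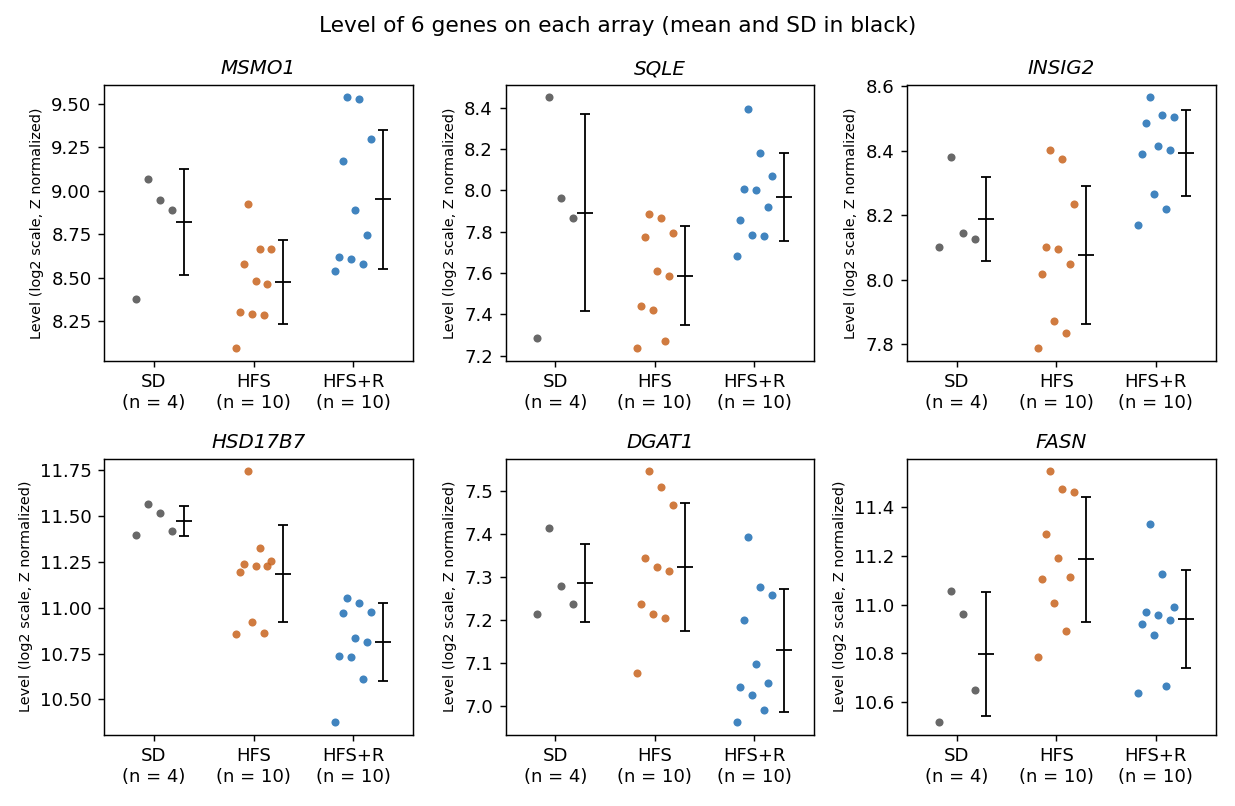
Level (log2 scale, Z normalized) of MSMO1, SQLE, INSIG2, HSD17B7, DGAT1 and FASN on each array of the SD (n = 4), HFS (n = 10) and HFS+R (n = 10) groups, with the mean and standard deviation in black. For HSD17B7 all 10 HFS+R points lie below the 4 SD points, which run from 11.40 to 11.57, and for MSMO1 a set of 4 HFS+R points lies at 9.17 to 9.54.

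Among regulators and transporters, 1 of 13 measured genes passed between HFS and HFS+R (7.69%, beside 16% of all genes). INSIG2 is one of the pair of proteins that hold SCAP in the endoplasmic reticulum. Its level was 8.38, 8.13, 8.14 and 8.10 on the SD arrays, ran from 7.79 to 8.40 with a median of 8.07 on HFS arrays, and from 8.17 to 8.57 with a median of 8.41 on HFS+R arrays. Of the HFS+R arrays, 6 lay above every HFS array and the other 4 lay in the upper part of the HFS range. The difference was 0.32 (SE 0.08, adjusted p = 0.00833, 10 of 10 HFS+R arrays above the HFS mean), the smallest p among the 36 genes, and no single array left out removed the call.

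The rest of the regulatory machinery did not pass between HFS+R and HFS. INSIG1, the sterol-responsive partner of INSIG2, differed by 0.26 (SE 0.13, adjusted p = 0.167). The cholesterol exporter ABCA1 differed by 0.27 (SE 0.10, adjusted p = 0.0739), with 10 of 10 HFS+R arrays above the HFS mean, and passed when HFS replicate 1 (adjusted p = 0.0425) or HFS replicate 10 (adjusted p = 0.0212) was left out. With the standard deviation of log2 signal within each array as a covariate in limma, its adjusted p was 0.544. Differences were 0.26 for VLDLR and 0.15 for LRP8, the apolipoprotein E and reelin receptors, and -0.16 for LRP1, another apolipoprotein E receptor. They were -0.08 for SREBF1 and 0.02 for SREBF2, which encode the SREBPs, 0.13 for NPC1 and -0.10 for NPC2, which release cholesterol from lysosomes, -0.05 for the exporter ABCG1 and 0.07 for CYP46A1, the neuronal enzyme that turns cholesterol into a form able to leave the brain. SCAP, with a difference of 0.08, stood at 9.88 and 9.90 on HFS+R replicates 5 and 9, while the other 22 arrays of all groups lay between 8.70 and 9.14.

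In lipogenesis, 1 of 14 measured genes passed between HFS and HFS+R (7.14%, beside 16% of all genes). DGAT1 adds the last fatty acid to a triglyceride. Its level was 7.41, 7.21, 7.24 and 7.28 on the SD arrays, ran from 7.08 to 7.55 with a median of 7.32 on HFS arrays, and from 6.96 to 7.39 with a median of 7.07 on HFS+R arrays. Of the HFS+R arrays, 5 lay below every HFS array. DGAT1 fell by 0.19 (difference -0.19, SE 0.07, adjusted p = 0.0425), the smallest change of the 5 and the least stable. Leaving out any one of HFS replicates 1, 2, 3, 4 and 8 or HFS+R replicates 1, 2, 3, 8, 9 and 10 lost the call, with adjusted p between 0.0554 and 0.085. Scaled by the array median, it was -0.13 (adjusted p = 0.237).

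FASN, the enzyme that assembles palmitate, differed by -0.25 (SE 0.10, adjusted p = 0.0908), and SCD, which puts the double bond into stearate, by 0.33 (SE 0.13, adjusted p = 0.0925). FASN passed without HFS replicate 10 (adjusted p = 0.0363) or HFS+R replicate 2 (adjusted p = 0.0437), and SCD without HFS replicate 6 (adjusted p = 0.0237). Scaled by the array median, the adjusted p of FASN was 0.842 with limma. That of SCD was 0.507 with the standard deviation of log2 signal within each array as a covariate. The fatty acid elongases ELOVL1 (0.20), ELOVL4 (0.19) and ELOVL6 (0.08) were above 0, and none of them passed. ELOVL5 also differed by 0.20 without passing, but it met the detection rule only through HFS+R, so its difference is not read with theirs. ELOVL1 passed without HFS replicate 2 (adjusted p = 0.0434) or HFS+R replicate 9 (adjusted p = 0.0472), and the desaturase FADS1, at 0.20, without HFS+R replicate 1 (adjusted p = 0.0352). The adjusted p of ELOVL1 was 0.381 in limma with the mean level of oligodendrocyte markers as a covariate. With the array standard deviation as a covariate, that of FADS1 was 0.686. The remaining differences were 0.15 for the fatty acid carrier FABP5, which has near-identical copies, 0.11 for ACLY, which makes cytosolic acetyl-CoA, 0.02 for SCD5, 0.01 for the lipoprotein lipase LPL, and -0.01 and -0.06 for the acetyl-CoA carboxylases ACACA and ACACB. The second probe of SCD5 gave 0.43 (adjusted p = 0.0535 over the detected probes) where the first gave 0.02. For ACLY the second probe gave 0.20 (adjusted p = 0.0735 over the detected probes). ACLY passed under 2 of 14 other settings, the mean of its detected probes and scaling by the array median. Its adjusted p was 0.393 with the array standard deviation as a covariate in limma. For the other 6 genes with a second detected probe, SQLE, DHCR7, ABCG1, ACLY, ELOVL6 and FABP5, all probes of a gene had 1 sign in this comparison. The count of 5 genes fell to 3 when HFS replicate 3, HFS replicate 4 or HFS+R replicate 3 was left out.

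The spread of log2 signal within an array overlapped between the diets, with different medians, and was not tested. Its standard deviation had a median of 1.51 on SD arrays (range 1.404 to 1.568), 1.42 on HFS arrays (1.32 to 1.496) and 1.47 on HFS+R arrays (1.418 to 1.585). With that standard deviation as a covariate, 0 of the 36 genes passed between HFS+R and HFS, and 402 genes passed in all. SQLE then differed by 0.17 (adjusted p = 0.316), MSMO1 by 0.30 (adjusted p = 0.201) and INSIG2 by 0.21 (adjusted p = 0.0941). HSD17B7 differed by -0.36 (adjusted p = 0.0595) and DGAT1 by -0.20 (adjusted p = 0.114), so their calls were lost with little change in the difference.

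Of the 10 oligodendrocyte markers measured of 13 listed, 3 rose in HFS+R vs HFS (30%, beside 16% of all genes), namely the myelin genes MOG (0.39), ERMN (0.32) and UGT8 (0.43). The other 7 did not pass, at 0.32 for CLDN11, 0.25 for MOBP, 0.19 for OPALIN, 0.06 for CNP, 0.04 for MAG, -0.01 for MYRF and -0.03 for MBP. Of the 3 that rose, ERMN was detected on 9 arrays (mean level 6.16) and MOG on 21 (6.59), so both were dim, and UGT8 on 24 (8.51). MBP (mean level 13.31), MAG (10.79) and MOBP (10.93) were detected on all 24 arrays. The mean level of the 10 markers, each centred on its mean, ran from -0.57 to 0.21 on HFS arrays, from -0.10 to 0.48 on HFS+R arrays and from -0.12 to 0.02 on SD arrays. With it as a covariate, MSMO1 (0.52, adjusted p = 0.0302) and INSIG2 (0.30, adjusted p = 0.0274) passed, while SQLE (0.38, adjusted p = 0.0636), HSD17B7 (-0.31, adjusted p = 0.0529) and DGAT1 (-0.21, adjusted p = 0.0672) did not. Of 9 astrocyte markers, GJA1 rose by 0.56 and ALDH1L1 fell by 0.32 (22.2% passed). Of 11 neuron markers, ENO2 fell by 0.32 (9.09% passed). None of the 9 microglia, 5 endothelial or 4 mural cell markers passed. Neuronal genes such as SNAP25 and SLC17A7 were detected on all 24 arrays.

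**Figure D3:**
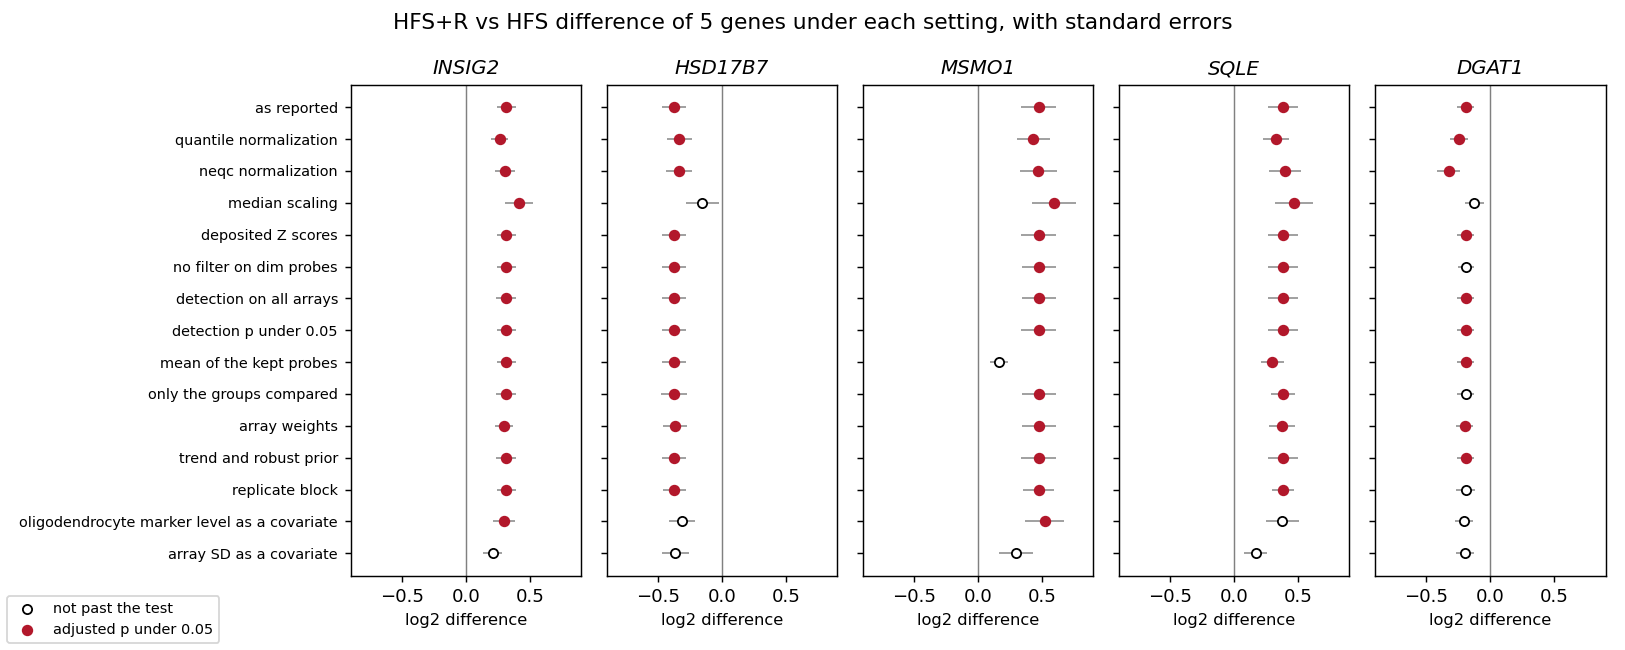
HFS+R vs HFS difference (log2, with its standard error) of the 5 genes that passed the test, as reported and under each of 14 other settings. Filled points mark an adjusted p under 0.05: INSIG2 keeps its call under 13 settings, MSMO1 and SQLE under 12, HSD17B7 under 11 and DGAT1 under 8, and with the array standard deviation as a covariate no point is filled. Among the 14 settings, the deposited Z scores match the recomputed ones, so that setting repeats the reported result and adds no separate check.

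Between HFS and SD, none of the 36 genes passed the test, and neither did any of the 9884 genes (0%). At an unadjusted p under 0.05 in the same limma fit there were 3 of 36 genes and 1250 of all genes, and the fits with array weights and with a trended, robust prior also gave 0 of 36. No gene of the 36 had HFS and SD arrays without overlap, compared with 0.536% of all genes. The median difference was -0.05 over the 36 genes and -0.03 over all genes. The lowest p in lipogenesis belonged to FASN. FASN stood at 10.52, 10.65, 11.06 and 10.96 on the SD arrays, from 10.78 to 11.55 with a median of 11.15 on HFS arrays, and from 10.64 to 11.33 with a median of 10.95 on HFS+R arrays. Of 10 HFS arrays, 7 lay above every SD array. Its difference was 0.39 (SE 0.13, unadjusted p = 0.00659, adjusted p = 0.262 with limma), and for the second in that group, the desaturase SCD5, it was 0.16 (SE 0.09, unadjusted p = 0.0876, adjusted p = 0.453 with limma). The SD arrays of SCD5 were at 11.12, 10.92, 11.30 and 11.43, inside or below the HFS range of 11.14 to 11.53 (median 11.38), and its HFS+R arrays ran from 11.23 to 11.64 (median 11.36).

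In sterol synthesis, HSD17B7 (difference -0.29, SE 0.13, unadjusted p = 0.0314, adjusted p = 0.344 with limma) and SQLE (-0.30, SE 0.15, unadjusted p = 0.0589, adjusted p = 0.415 with limma) had the lowest p between HFS and SD. MSMO1 differed by -0.34 (SE 0.18, adjusted p = 0.422). Among the regulators, LRP8 came first (-0.20, SE 0.08, unadjusted p = 0.0239, adjusted p = 0.323 with limma). LRP8 stood at 6.69, 6.62, 6.28 and 6.53 on the SD arrays, from 6.11 to 6.51 with a median of 6.35 on HFS arrays and from 6.30 to 6.63 with a median of 6.47 on HFS+R arrays. These levels are close to the detection limit, since LRP8 was detected on 3 SD, 6 HFS and 9 HFS+R arrays. ABCA1 followed (-0.25, SE 0.14, unadjusted p = 0.0756, adjusted p = 0.436 with limma), at 8.625, 8.481, 8.197 and 7.981 on the SD arrays, from 7.71 to 8.57 (median 8.11) on HFS arrays and from 8.13 to 8.58 (median 8.32) on HFS+R arrays. Both of the comparisons that involve HFS share its 10 arrays. Side by side, HFS minus SD and then HFS+R minus HFS were -0.34 and 0.47 for MSMO1, -0.30 and 0.38 for SQLE, -0.25 and 0.27 for ABCA1, -0.20 and 0.15 for LRP8, and 0.39 and -0.25 for FASN, whereas they were -0.29 and -0.37 for HSD17B7 and 0.16 and 0.02 for SCD5. A high or low HFS mean enters these 2 differences with opposite signs. With the array standard deviation as a covariate, HFS minus SD was -0.02 for SQLE (adjusted p = 0.976), -0.05 for ABCA1 (adjusted p = 0.956), 0.17 for FASN (adjusted p = 0.758) and -0.30 for HSD17B7 (adjusted p = 0.672). The 2 other detected probes of MSMO1 gave -0.39 and 0.01 for HFS minus SD.

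Between HFS+R and SD, 1 of 36 genes passed the test (2.78%), compared with 6.3% of all genes. That gene was HSD17B7, lower by 0.66 (1.58-fold, SE 0.13, adjusted p = 0.00206), with a mean of 11.48 ± 0.08 (standard deviation, n = 4) on SD arrays and 10.81 ± 0.21 (standard deviation, n = 10) on HFS+R arrays. All 10 HFS+R arrays lay below all 4 SD arrays. The call held with each array left out in turn, and under each other setting except a block on the replicate number (4 pairs, adjusted p = 0.233, where 0 of all genes passed). Of all genes, 4.1% were lower and 2.21% higher, and 0 of the 36 genes were higher. Scaled by the array median, the split of all calls went from 218 higher and 405 lower to 30 higher and 331 lower, and HSD17B7 still passed.

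LRP1, the receptor that takes up apolipoprotein E particles, was the other gene whose HFS+R and SD arrays did not overlap, which makes 2 of 36 genes (5.56%), beside 4.01% of all genes. Its SD arrays stood at 8.78, 8.66, 8.89 and 8.65, and its HFS+R arrays ran from 8.10 to 8.64 with a median of 8.49. The gap between the nearest arrays was small, and the difference of -0.31 (SE 0.11, adjusted p = 0.0958) did not pass. Without SD replicate 4, DHCR7 passed too (-0.34, adjusted p = 0.0429), so the count went from 1 to 2. Without SD replicate 3, the adjusted p of DHCR7 was 0.957 with limma.

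The study's methods used a Z ratio beyond 1.5 in either direction with an unadjusted p under 0.05 and a false discovery rate of 0.3, read here as an upper limit. Applied to the limma p-values, those thresholds took 12 of 36 genes in HFS+R vs HFS (8 higher, 4 lower), beside 26.4% of all genes. They added the elongases ELOVL1 and ELOVL5, FADS1, SCD and ABCA1 on the higher side, and FASN and DHCR7 on the lower side, to the 5 genes above. Of these, ELOVL5 met the detection rule only through HFS+R arrays. In HFS vs SD they took 1 of 36 genes, FASN, beside 5.38% of all genes, and in HFS+R vs SD they took HSD17B7 and LRP1, beside 17.6% of all genes.

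**Figure D4:**
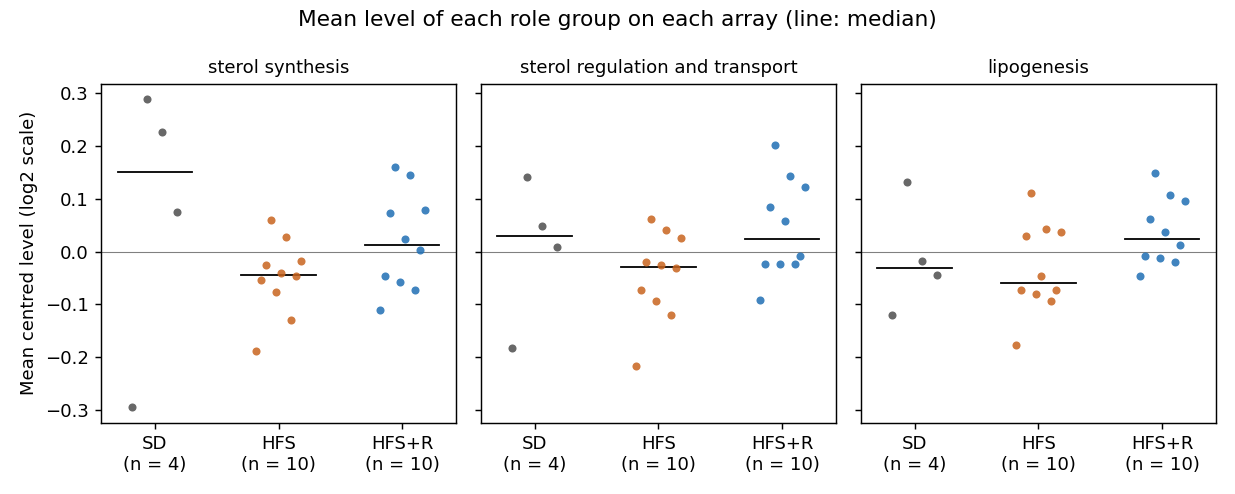
Mean level per array of the 9 sterol synthesis, 13 regulation and transport and 14 lipogenesis genes (log2 scale, each gene centred on its mean over the 24 arrays), by diet group, with the median as a line. For sterol synthesis SD replicate 4 lies at -0.29 and SD replicate 1 at 0.29, wider apart than any HFS or HFS+R arrays.

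Of the 3 role groups, the SD arrays differed most among themselves in the sterol synthesis genes. The mean centred level of the 9 enzymes was 0.29, 0.07, 0.23 and -0.29 on SD replicates 1 to 4, while HFS arrays ran from -0.19 to 0.06 (median -0.04) and HFS+R arrays from -0.11 to 0.16 (median 0.01). The same SD replicate 4 was lowest for regulation and transport (-0.18) and for lipogenesis (-0.12), and replicate 1 was highest in both (0.14 and 0.13). SQLE had that order of its extremes, and HMGCS1 had its lowest SD level on replicate 4 (10.33) and its highest on replicate 3 (11.28). SD replicates 1 and 4 also had the highest and lowest standard deviation of log2 signal in that group (1.568 and 1.404). The mean centred level of the neuron markers ran the other way, at -0.27 on SD replicate 1 and 0.19 on SD replicate 4. Whether the order of the SD arrays is particular to sterol genes was not tested. In regulation and transport, the HFS range was -0.22 to 0.06 and the HFS+R range -0.09 to 0.20. In lipogenesis these ranges were -0.18 to 0.11 and -0.05 to 0.15. The HFS and HFS+R ranges thus overlapped in all 3 role groups.

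Within diet groups, several of these genes varied together from array to array. After each diet mean was taken off, the median correlation of 2 sterol synthesis genes over the 24 arrays was 0.29 (36 pairs), compared with 0.07 for regulators and transporters (78 pairs), 0.06 for lipogenesis genes (91 pairs) and 0.02 for all pairs of measured genes. The correlations are descriptive, since the arrays share tissue, chip type and scaling. They were not adjusted for the standard deviation of signal within each array. With it as a covariate in limma, the HFS+R vs HFS difference of SQLE went from 0.38 to 0.17. The adjusted p of INSIG1 in that comparison went from 0.167 to 0.974. How much of the correlation follows that spread was not tested. SQLE and INSIG1, both known SREBP targets in human cells, had the highest value of all 630 pairs, r = 0.81, with 0.71 among the HFS arrays and 0.77 among the HFS+R arrays. INSIG1 also varied with NSDHL (r = 0.61) and SCD (r = 0.61), and SCD with FADS1 (r = 0.59). ELOVL5 gave r = 0.64 to INSIG1 and 0.68 to SCD. It was detected on only 6 arrays and met the detection rule only through HFS+R, so its correlations are not read with theirs. FASN, another SREBP target, ran the other way, with r = -0.59 to INSIG1, -0.56 to SQLE, -0.54 to MSMO1 and -0.61 to ABCA1, the last of these weaker among HFS+R arrays (-0.12) than among HFS arrays (-0.72). HSD17B7 stood apart from the group of SQLE and INSIG1, with r = -0.21 to MSMO1, -0.04 to SQLE and -0.10 to INSIG1.

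**Figure D5:**
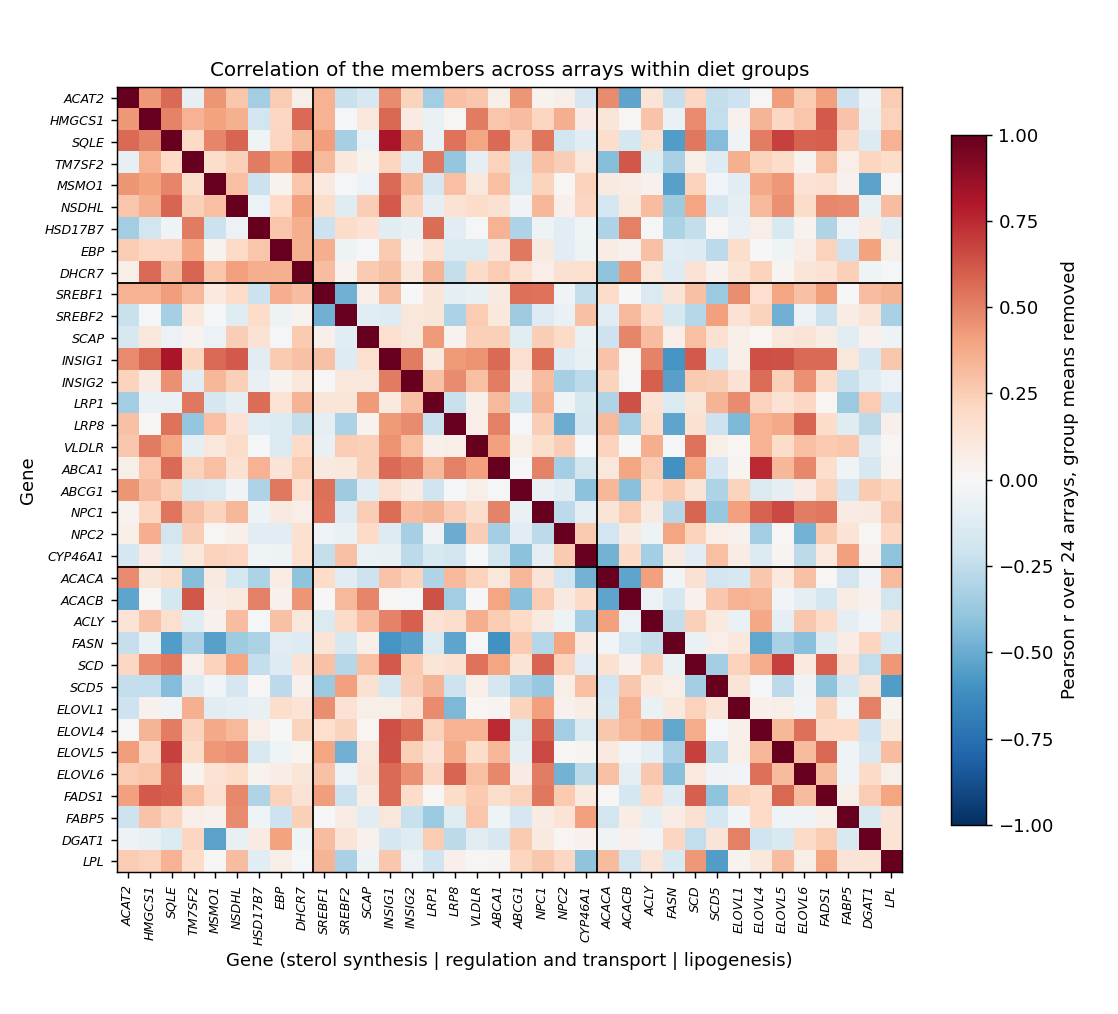
Pearson correlation of each pair of the 36 genes over 24 arrays after the mean of each diet group was removed, in the order sterol synthesis, regulation and transport, lipogenesis. The red block of SQLE, NSDHL, INSIG1, SCD, ELOVL5 and FADS1 includes the highest pair, SQLE with INSIG1 at 0.81, and the blue row of FASN reaches -0.61 with ABCA1. In that block, ELOVL5 was detected on only 6 of the 24 arrays.

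Other genes of the same pathways were counted from a separate list. Of 10 measured genes of sterol and isoprenoid synthesis, 1 rose in HFS+R vs HFS (10%, beside 16% of all genes called in either direction), the farnesyltransferase subunit FNTA (0.27, adjusted p = 0.00362), and it was also higher in HFS+R than in SD (0.40, adjusted p = 0.00182). Of 25 measured genes of sterol regulation and transport, 2 rose and 2 fell, a share of 16% and the same as the 16% of all genes in this comparison. The risers were OSBPL8 (0.46, adjusted p = 0.00799), an oxysterol-binding protein relative, and ERLIN1 (0.23, adjusted p = 0.0128), an endoplasmic reticulum protein of the INSIG and SREBP machinery. The transporters ABCA7 (-0.30, adjusted p = 0.0119) and ABCA3 (-0.25, adjusted p = 0.0111) fell. ABCA7 was dim, detected on 15 arrays (mean level 6.35).

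Of 23 measured genes of lipogenesis and fatty acid handling, 3 rose and 3 fell (26.1%, beside 16% of all genes). In the elongation cycle for long fatty acids, the dehydratase HACD3 (-0.47, adjusted p = 0.00209) and the reductase TECR (-0.33, adjusted p = 0.00531) fell, while the dehydratase HACD2 rose (0.32, adjusted p = 0.0296). ACSL4, which activates polyunsaturated fatty acids, rose by 0.51 (adjusted p = 0.0296), as did AGPAT5, an enzyme of phospholipid synthesis (0.28, adjusted p = 0.00541). SLC25A1, the mitochondrial citrate carrier that supplies ACLY, fell by 0.22 (adjusted p = 0.0356). Relative to SD, HFS+R arrays were higher for ERLIN2 (0.25, adjusted p = 0.0387), OSBP (0.23, adjusted p = 0.0361) and AGPAT5 (0.27, adjusted p = 0.0442) and lower for SLC25A1 (-0.37, adjusted p = 0.0174) and HACD3 (-0.46, adjusted p = 0.0187). ERLIN2 was dim, detected on only 6 arrays (mean level 6.16), and its detection by diet group was not examined. With FNTA, the shares that passed were 10% of 10, 8% of 25 and 13% of 23 genes in the 3 lists, beside 6.3% of all genes. None of these 58 genes passed between HFS and SD.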

How the data were processed

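RNA of 24 monkeys was measured on 24 arrays. The authors deposited a signal intensity for each of 47323 probes per array, made with GenomeStudio 2011.1 per the labels, with the detection p-value that the authors took from that software. Beside these, a Z score was deposited (log2 signal minus its array mean, over its array standard deviation). Z scores were recomputed from the signals, matched the deposited ones within 5e-10, and were returned to log2 units by 1 factor (1.46) and 1 constant (6.463). Array medians of signal ran from 54.9 to 60.3, and 11413 to 14890 probes per array were detected at p under 0.01. Probes had to be detected on at least 4 arrays. Those with 1 symbol were named from the platform annotation, and the brightest kept probe stood for its gene. The 3 comparisons came from 1 limma 3.58.1 model (R 4.3.3, statmod 1.5.0, empirical Bayes, 2-sided) over all 9884 genes, with Benjamini-Hochberg adjustment in each comparison and 0.05 as the threshold. The script was tested on simulated data. Groups and replicate numbers come from the labels, which do not say how animals were batched. Full values are given for genes past the test in any comparison and, in each role group, for the 2 genes with the lowest p in HFS vs SD. LRP1, SCAP, INSIG1, HMGCS1 and the genes that just missed were added after their values were seen. The genes and lists were chosen with earlier results of these data known. Promoter sequences were not analysed here.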

Additional observations from a re-analysis of the deposited data

Results flagged for a closer look

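Among 108 groups of values (36 genes in 3 diets), 6 held an array whose distance to the nearest other array was large against the range of its group. About 1 in 20 groups is picked out in this way by chance, and 6 of 108 is close to that share. HMGCS1 stood at 11.18 on HFS replicate 6, with the next array at 10.90. HSD17B7 stood at 11.75 on HFS replicate 1, with the next at 11.33, and that array was the only HFS array above the SD arrays. In the SD group, SREBF1 was low on replicate 4 (6.58, next 7.16), and INSIG2 (8.38, next 8.14) and ACLY (10.40, next 10.30) were high on replicate 1. FADS1 was low on HFS+R replicate 1 (7.63, next 8.03).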

How the results depend on the processing

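The count of 5 genes in HFS+R vs HFS became 2 with the oligodendrocyte marker level as a covariate, 0 with the array standard deviation as a covariate and 12 with the thresholds in the methods, and ran from 3 to 7 as arrays were left out in turn. In HFS vs SD the count was 0 under each setting and each array left out, except 1 with the thresholds in the methods. In HFS+R vs SD the count of 1 became 2 with array weights (SCD5 was added) and 2 with the thresholds in the methods, and ran from 1 to 2 as arrays were left out. Replicate numbers do not pair the animals: same-numbered HFS and HFS+R arrays deviated together with r from -0.12 to 0.25, over 0.1 in 2 of 10 pairs. With the replicate block the counts were 6 in HFS+R vs HFS (10 pairs; DHCR7 and VLDLR were added and DGAT1 lost), 0 in HFS vs SD (4 pairs) and 0 in HFS+R vs SD (4 pairs). SCD5 in HFS vs SD turned to -0.13 with median scaling, where the median of all genes was -0.16. Over all genes, calls in HFS+R vs HFS went from 1582 to 402 with the array standard deviation and 2607 with the thresholds in the methods. Those in HFS+R vs SD went from 623 to 361 with median scaling, 977 with the array standard deviation, 0 with the replicate block and 1735 with the thresholds in the methods. The causes were not tested. Dim probes limit SREBF2, LRP8, ACACA, ELOVL5 and LPL.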
